A study of Arabidopsis thaliana with 12 samples.

Results

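Seedlings of Arabidopsis thaliana that carry a pkl mutation were compared with wild-type seedlings at 14 days, over all 31788 loci of the deposited table for that pair of genotypes. The members are the loci of that table, and 19507 of them have a deposited test. A locus is a stretch of the genome assembled as 1 transcription unit: 29495 loci hold 1 gene, 2059 hold several and 234 have no gene name. With the more highly expressed locus kept where a gene has more than 1, 17107 single genes were tested, and all counts of genes use these.

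The wild type (WT) and pkl groups have 3 RNA-seq libraries each, which are 6 of the 12 libraries of the series; the others are 3 libraries each of clf and lhp1, mutants of Polycomb-group genes. Seedlings were sampled whole and received no further treatment. Their medium was 0.5 × MS, and growth was at 22 °C in days of 16 h light and 8 h dark, and the labels name no pkl allele. The table gives 1 value per genotype and no value per library, so no standard deviation can be given here. Nothing in the labels says that the 3 libraries of a genotype came from separate cultures, so the deposited p-values measure only the spread between these libraries, which may be technical.

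PICKLE (PKL) is a CHD3-type chromatin remodeller, an enzyme that moves nucleosomes with energy from ATP. It is known for keeping embryonic genes off in seedlings, for gibberellin-dependent development and for its link to trimethylated lysine 27 of histone H3, the mark that Polycomb complexes write. Loss of PKL is known to change the expression of genes in both directions.

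The mutated gene itself was lower in pkl. PKL (AT2G25170) was at 20.8 FPKM in wild type, 6.83 in pkl, 21.5 in clf and 20.7 in lhp1, where FPKM is a fragment count scaled to transcript length and library size. Its log2 fold change in pkl was -1.61. In the authors' deposited table its q was 0.000661, which is the smallest the table holds. Of the 11 tested members of a list of PKL and related remodellers, PKL was the only one called.

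A gene was called where the authors' deposited q was under 0.05. By that rule 1213 genes rose and 1217 fell, 7.09% and 7.11% of the 17107 tested, or 14.2% in both directions. The median log2 fold change of all tested genes was 0.014, and 8964 of them were above 0. Among called genes the median absolute log2 fold change was 0.73; 359 rose and 422 fell by at least 2-fold, and 85 rose and 122 fell by at least 4-fold.

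**Figure D1:**
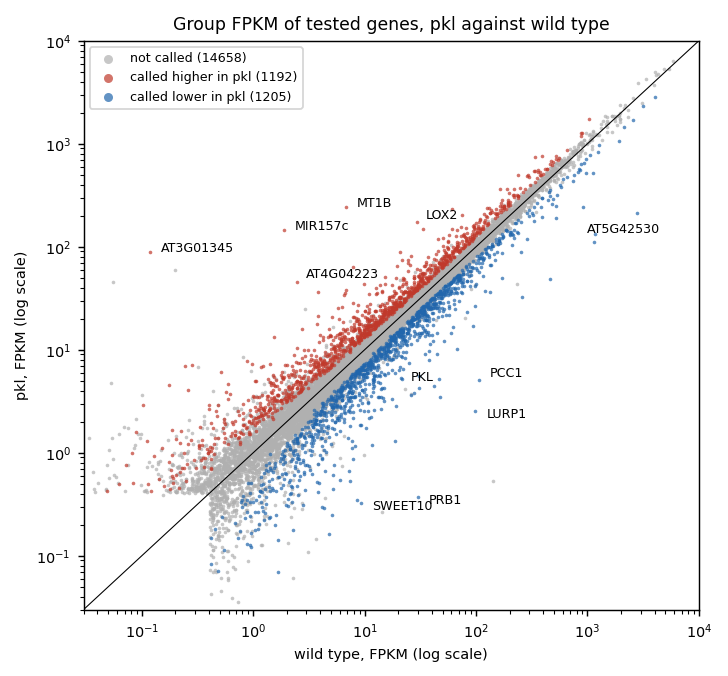
Group FPKM of each tested gene above 0 in both genotypes, wild type on the x axis and pkl on the y axis, both on log scales; each point is 1 gene and the line marks equal values. Called genes lie on both sides of the line at all levels, with MIR157c, AT3G01345 and MT1B far above it and PRB1, LURP1 and SWEET10 far below.

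Among genes above 0 in wild type and at 5 FPKM or more in the higher genotype, the 2 with the largest rise on the log2 scale were AT3G01345 and MIR157c. AT3G01345, annotated as an uncharacterised protein, was at 0.118 FPKM in wild type, 89.8 in pkl, 0.22 in clf and 0.0938 in lhp1. The precursor of miR157c, MIR157c, was at 1.88, 145, 1.16 and 0.294 FPKM in the same order. The noncoding RNA AT4G04223, also among the 20 largest rises, was at 2.47, 45.5, 3.53 and 8.09. In all 3 the pkl value stood far above the values of the other genotypes.

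A further 21 called genes were listed at 0 in wild type. The noncoding RNA AT2G01422 was at 45.5 FPKM in pkl and at 0.102 or less in wild type, clf and lhp1. AT1G27565, of unknown function, was at 8.96 in pkl and the beta-galactosidase-related gene AT4G29200 at 3.61, and both were listed at 0 in the other 3 genotypes. Lower pkl values of genes at 0 in wild type were 2.97 for the defensin-like gene AT1G34047, 2.71 for the F-box gene AT1G20795 and 2.07 for the transporter-family gene AT2G18590. These have no fold change, because a group value of 0 without counts sets no floor.

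Other large rises included enzymes and small proteins. MT1B, a metallothionein that binds metal ions, went from 6.82 to 246 FPKM and was at 22.4 in clf and 12.1 in lhp1. It has close copies in the genome, so the share of its reads that came from them is uncertain. CAD2, a member of the cinnamyl alcohol dehydrogenase family, went from 0.281 to 7.1 FPKM, and its relative CAD3 from 0.594 to 4.62. TAT3, a tyrosine aminotransferase, went from 1.54 to 13.3 FPKM and LOX2, a chloroplast lipoxygenase that starts jasmonate synthesis, from 29.6 to 172. Both were also called higher in lhp1, at 3.85 and 93.8 FPKM. In clf LOX2 was called higher, at 74.3 FPKM, and TAT3 was not called.

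Calls among chromatin genes went in both directions, and over all tested genes 14.2% were called. The chromatin lists are small, and no test sets their shares apart from that one. PHE1, a MADS-box gene known as an imprinted Polycomb target in seeds and named here after its values were seen, was at 0.174 and 4.6 FPKM in wild type and pkl. RING1B, a component of Polycomb repressive complex 1, rose from 5.88 to 20.1 FPKM, and SWN, a histone methyltransferase of Polycomb repressive complex 2, by 0.41 on the log2 scale. DML1, the DNA demethylase also called ROS1, fell from 10.6 to 2.53 FPKM, whereas it was at 21.4 in clf and 14.7 in lhp1. Of 15 tested Polycomb genes 2 rose and 0 fell, and of 24 genes of DNA methylation and silencing 2 rose and 3 fell, among them IBM1, a histone demethylase that protects genes from silencing, from 9.92 to 5.87. Of 7 tested H3K27 demethylases and Trithorax-type factors, the Trithorax-type factor ULT1 rose from 13.4 to 19.2 and the JmjC-domain gene JMJD5 fell from 124 to 94.3 FPKM.

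**Figure D2:**
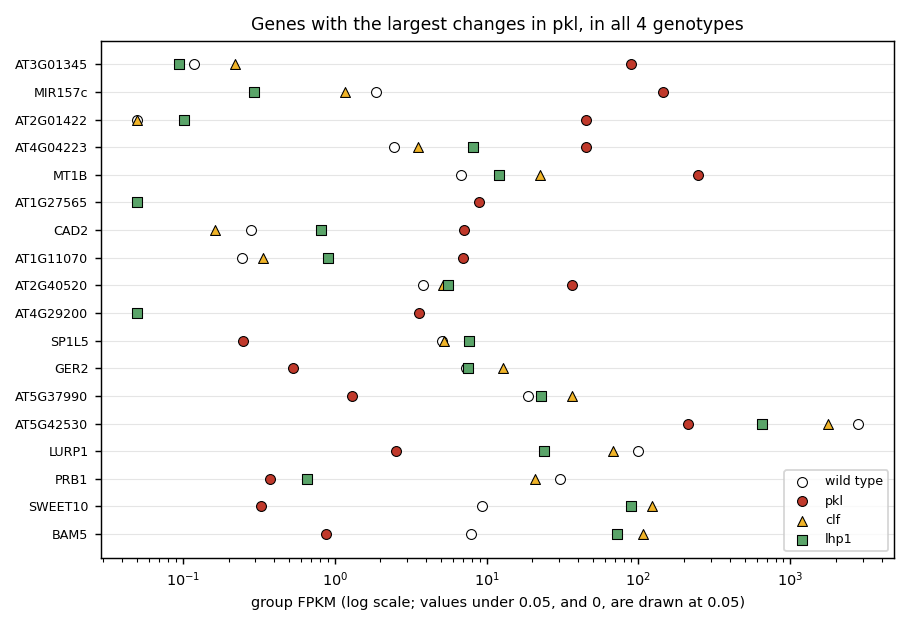
Group FPKM (x axis, log scale; values under 0.05 are drawn at 0.05) of 18 genes with large rises or falls in pkl, 1 marker per genotype. The pkl marker stands to the right of the other 3 in the upper 10 genes and to the left of them in the lower 8; SWEET10 and BAM5 are above wild type in clf and lhp1.

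The miR157 family, like the related miR156, acts on mRNAs of SPL genes, which promote the change from juvenile to adult leaves. The mature sequences encoded at MIR157c are shown because that locus was the only one called of 25 tested miRNA precursors, with the seed, bases 2 to 8, in capitals. They were read from the minus strand of the TAIR10.1 reference of RefSeq, at chr3:6244673-6244693 for the 5′ arm and chr3:6244527-6244547 for the 3′ arm.
miR157c-5p: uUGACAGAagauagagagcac
miR157c-3p: gCUCUCUAuacuucugucacc
For 2 of the SPL genes, the stretch of the gene most like the complement of miR157c-5p follows, with bases that differ from that complement in capitals. SPL9 carries 1 such base (chr2:17589066-17589086, plus strand) and SPL4 carries 3 (chr1:19807090-19807110, plus strand). At their closest stretches SPL2, SPL10, SPL11 and SPL15 also carry 1, SPL13A carries 2, SPL5 carries 4 and SPL3 carries 5.
complement of miR157c-5p: gtgctctctatcttctgtcaa
SPL9: gtgctctctCtcttctgtcaa
SPL4: CtgctctctCtcttctgtcaT

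The rise of the precursor had no called counterpart among the SPL genes. SPL4 was at 4.38 and 2.48 FPKM in the wild type and the mutant (q = 0.0545 in the authors' deposited table). SPL3 was at 6.81 and 4.41 (deposited q = 0.213) and SPL9 at 4.74 and 3.43 (deposited q = 0.118). Of 13 tested members of the list, which holds SPL genes and miR156, miR157 and miR172 precursors, 1 rose and 0 fell, and 3 had a positive log2 fold change. A precursor's FPKM does not measure the mature miRNA, which was not measured in these libraries. In clf and lhp1 the SPL3 values were 25.3 and 24.3 FPKM.

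Root hair genes were the list with the largest share of rises. Of 22 tested members 14 rose and 1 fell, against 7.09% and 7.11% of all tested genes; the median log2 fold change was 0.70 and the summed level went from 549 to 930.4 FPKM. RSL4, the transcription factor that sets root hair growth, was at 2.43 FPKM in wild type, 7.58 in pkl, 1.93 in clf and 3.27 in lhp1. RHS18, a peroxidase gene of growing hairs, was at 13.6, 42.8, 12.4 and 12.6 FPKM. In both genes the pkl value stood above the other 3 genotypes, and their log2 fold changes were 1.64 and 1.65.

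Wall proteins of the root hair rose with them. The expansin EXPA7, which loosens walls, went from 22.3 to 50.1 FPKM and EXPA18 from 27.7 to 52. The proline-rich structural proteins PRP1 and PRP3 went from 36.7 to 79.6 and from 130 to 240.1. The exception was RSL2, a close relative of RSL4, which fell from 7.88 to 3.49 FPKM, while RHD6, which acts upstream of both, was at 3.65 and 3.17 and was not called.

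In seedlings sampled whole, fewer cells of a type and less RNA per cell cannot be told apart. Of 12 tested root markers 2 rose (EXPA7 and PLT1), 3 fell and 7 were not called, and 6 had a positive log2 fold change. Their summed level was 2512 FPKM in wild type and 2464 in pkl, of which the beta-glucosidase PYK10 alone made up 1916 and 1905. The 10 shoot markers summed to 22310 and 24640 FPKM, and 1 of them, LHCA1, fell. Of 14 tested genes of root meristem and patterning 1 rose, although 12 had a positive log2 fold change, and of 19 suberin and Casparian strip genes, which mark the endodermis, none was called. The part of tissue proportions in the root hair result was not tested.

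The letters ACGTG, the core of many binding sites of bZIP and bHLH factors, occur on either strand in the 250 bases before the annotated start of 10 of the 15 called root hair genes. The share among all tested nuclear genes was 23.9%, among genes that rose 29.5% and among genes that fell 26.9%. The stretches below are shown because they hold this match in the 6 root hair genes with the largest rises among the 10, each 60 bases from the TAIR10.1 reference in the direction of the gene, with ACGTG or its reverse complement CACGT in capitals. A match is a description of letters and not a site of binding. Whether such letters played a part in first grouping these genes as root hair genes was not examined. The share is therefore given as description only. None of the 15 genes holds the full palindrome CACGTG, which 7.31% of all tested genes hold.
RHS18 (chr5:7426200-7426259, plus strand): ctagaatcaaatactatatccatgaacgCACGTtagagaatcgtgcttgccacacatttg
EXPA7 (chr1:4276410-4276469, plus strand): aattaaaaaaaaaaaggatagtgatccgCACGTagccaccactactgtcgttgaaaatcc
PERK13 (chr1:26555645-26555704, plus strand): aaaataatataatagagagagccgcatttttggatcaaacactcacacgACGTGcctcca
G3Pp2 (chr4:12920609-12920668, plus strand): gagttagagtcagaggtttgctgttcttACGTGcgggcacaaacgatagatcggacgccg
EXPA18 (chr1:23331503-23331562, plus strand): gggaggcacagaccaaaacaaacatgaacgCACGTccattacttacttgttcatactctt
RHS19 (chr5:26894670-26894729, plus strand): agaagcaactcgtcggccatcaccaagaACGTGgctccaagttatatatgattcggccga

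Calls among phosphate starvation genes were falls. Of 17 tested members 9 fell and 0 rose, against 7.11% and 7.09% of all tested genes. The median log2 fold change of the list was -0.66, and its summed level was 1773 FPKM in wild type and 1099 in pkl. The phosphate transporters PHT1;2 and PHT1;4 fell from 21.4 to 8.57 and from 154 to 88.1 FPKM. MGDC and MGD2, which make galactolipids that replace phospholipids, fell from 68.9 to 39.8 and from 24.6 to 14.5. SQD1, which does the same for sulfolipids, fell from 253 to 172.

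Regulators of the phosphate response were split. SPX2, an inhibitor of the response, fell from 58.9 to 43.1 FPKM and PHO2, a ubiquitin-conjugating enzyme that limits phosphate uptake, from 53.2 to 36.6. PHR1, the transcription factor at the head of the response, was at 34.3 and 34.6 FPKM and was not called. The noncoding RNA IPS1 had the widest gap of the list, 231 against 43, but was not called (q = 0.152 in the authors' deposited table). In the other mutants PHT1;2 was at 10.9 FPKM in clf and 1.69 in lhp1.

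**Figure D3:**
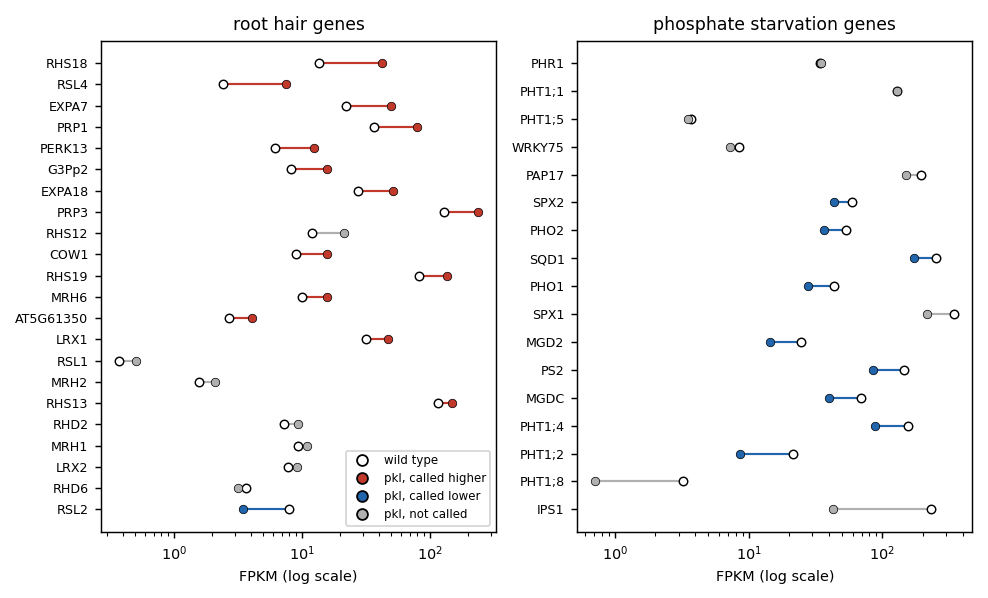
FPKM of the tested root hair genes (left) and phosphate starvation genes (right) on log axes, open circles for wild type and filled circles for pkl, coloured by the call. The pkl values of 14 root hair genes lie to the right of wild type and are called, and those of 9 phosphate genes lie to the left.

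The letters GNATATNC, the binding motif known for PHR1, are in the 250 bases before the start of 3 of the 9 called phosphate genes and of 5.70% of all tested genes. The 3 stretches are shown, with the match in capitals.
PHT1;2 (chr5:17415630-17415689, plus strand): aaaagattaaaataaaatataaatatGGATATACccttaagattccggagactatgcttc
PS2 (chr1:27466532-27466591, minus strand): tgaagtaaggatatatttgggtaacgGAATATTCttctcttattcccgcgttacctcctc
MGD2 (chr5:6896403-6896462, plus strand): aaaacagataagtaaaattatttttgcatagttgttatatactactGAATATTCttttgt

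The cell wall families described here had at least 8 tested members, with at least 25% of them called in 1 direction. Their high shares of calls follow from that choice, and 7.09% of all tested genes rose and 7.11% fell. Among wall families outside it, expansins rose in 5 and fell in 5 of 24. Arabinogalactan and fasciclin proteins rose in 4 and fell in 2 of 42. Extensins and proline-rich proteins, which form the protein network of the wall, rose in 16 and fell in 6 of 49 tested. AT1G26250 went from 9.81 to 43.4 FPKM and EXT13 from 73.6 to 127, whereas the most abundant called member, EXT3, fell from 2141 to 1466. Cellulose synthases and their relatives rose in 8 and fell in 0 of 27, with CSLB01 from 1.43 to 3.42 and CSLE1 from 120 to 181. CESA9, a cellulose synthase, went from 0.598 to 1.21, and the others of the 8 are of the cellulose synthase-like groups.

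Enzymes that cut or cross-link wall polymers moved in both directions. Xyloglucan hydrolases (XTH) rose in 7 and fell in 4 of 26: XTH13 went from 13 to 35.6 FPKM and XTH25 from 2.28 to 0.179. Class III peroxidases, secreted enzymes that cross-link wall phenolics, rose in 15 and fell in 11 of 56. AT1G34510 went from 6.86 to 37.7 FPKM and AT2G37130 from 337 to 748, while AT5G64120 fell from 518 to 189 and PRXCA from 96.8 to 26.4. Subtilases, secreted proteases, rose in 1 and fell in 6 of 24, with AIR3 from 74.1 to 35.5.

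**Figure D4:**
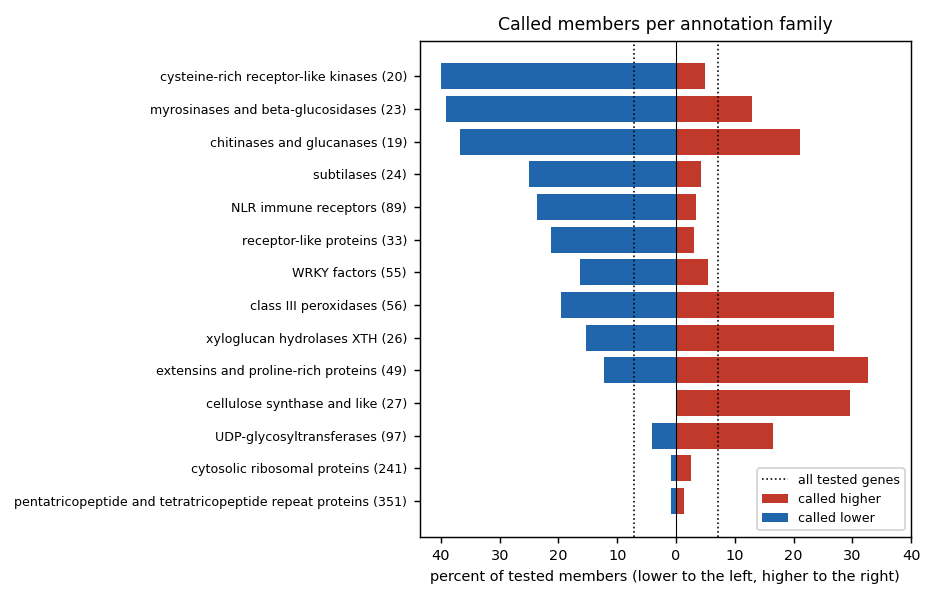
Percent of tested members called lower (bars to the left) and higher (bars to the right) in pkl for 14 annotation families, with the number tested in brackets; dotted lines mark the percent over all tested genes. Receptor kinase and glucosidase families lean to the left and extensin and cellulose synthase families to the right, and ribosomal and pentatricopeptide proteins have few calls.

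Calls among genes of phenolic synthesis were mostly rises. Of 19 tested phenylpropanoid and lignin genes 8 rose, 0 fell and 11 were not called, whereas 7.09% of all tested genes rose and 7.11% fell. The median log2 fold change of the list was 0.30. The entry enzymes PAL1, PAL2 and PAL3 were at 121, 60.6 and 16.7 FPKM in wild type and at 171, 87.7 and 32.3 in pkl. 4CL3, which feeds flavonoid synthesis, went from 5.59 to 11.1.

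In the flavonoid branch several enzymes rose and 2 regulators fell. TT4, the chalcone synthase that commits carbon to flavonoids, went from 239 to 496 FPKM, F3H from 35.7 to 70.3, CHIL from 43.3 to 75.0 and FLS1, the flavonol synthase, from 55.9 to 95.6. MYB90, an activator of anthocyanin synthesis, fell from 10.2 to 1.73 FPKM, and MYBL2, an inhibitor of it, from 28 to 14.6. The early enzyme TT7 was at 8.97 and 10 FPKM and was not called. In all, 5 of 19 tested members rose and 2 fell, against 7.09% and 7.11% of all tested genes.

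The glucosinolate branches differed in their counts. Of 18 tested genes of indole glucosinolate and camalexin synthesis 9 fell and 1 rose, against 7.11% and 7.09% of all tested genes. The median log2 fold change of the 18 was -0.37. CYP83B1, of the indole core pathway, fell from 334 to 179 FPKM, MYB51, an activator, from 32.4 to 16.9 and CYP71A12, of camalexin synthesis, from 13.4 to 3.5. MYB34, another activator, rose from 20.8 to 28.9. Of 20 aliphatic glucosinolate genes 6 rose and 2 fell, with AOP2, a side-chain enzyme, from 1.2 to 3.65. No test compares the branches. Myrosinases and other beta-glucosidases, which release the active products, fell in 9 and rose in 3 of 23, TGG2 from 212 to 134 FPKM. That family is described because it met the minimum share of calls given for the cell wall families. Its high share of falls follows from that choice.

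Genes of sugar movement included large falls. SUC2, the sucrose carrier that loads the phloem, fell from 134 to 65.9 FPKM and was at 151 in clf and 129.8 in lhp1. SWEET11 and SWEET12, the exporters that supply it, fell from 218 to 122 and from 119 to 78.4, and the monosaccharide carrier STP1 fell from 285 to 119. SWEET10 fell from 9.29 to 0.327 FPKM, whereas it was at 123 in clf and 89.6 in lhp1. Of 22 tested members 7 fell and 4 rose, among the latter SUC5 from 0.403 to 2.91 and STP14 from 20.5 to 39.5. The shares over all tested genes were 7.11% for falls and 7.09% for rises.

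Starch genes included a change of the same kind. The cytosolic beta-amylase BAM5 fell from 7.88 to 0.87 FPKM and was at 107 in clf and 72.4 in lhp1, while CT-BMY, a chloroplast beta-amylase, rose from 109 to 185. Of 26 starch genes 5 fell and 3 rose, against 7.11% and 7.09% of all tested genes. Of 27 tested nuclear genes of the photosystems and Rubisco, 1 rose (PSBO2, from 539 to 702) and 1 fell (LHCA1, from 581 to 378).

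Sulfur genes had calls in both directions. The sulfur-deficiency markers LSU1, LSU2 and LSU4 fell from 21.8, 37.3 and 11.8 FPKM to 5.23, 21.4 and 3.85. ATSDI1, a repressor of glucosinolate synthesis under low sulfur, fell from 4.78 to 1.44. The sulfate-reducing enzymes APR2 and APR3 rose from 55.7 and 52.9 FPKM to 96.3 and 89.7. LSU3, at 4.74 and 3.70 FPKM, and APR1, at 47.2 and 52.0, were not called. In all, 5 of 18 tested members rose and 4 fell, against 7.09% and 7.11% of all tested genes. With a 2-fold minimum 3 of the falls and 0 of the rises were left.

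Nitrogen, iron and detoxification lists had calls in both directions, and over all tested genes 7.09% rose and 7.11% fell. Of 20 nitrate genes 4 rose and 3 fell, with ASN2, an asparagine synthetase, from 164 to 361 FPKM and the transporter NRT2.5 from 4.6 to 1.56. Of 17 iron genes 3 rose and 2 fell, with IRT2, an iron transporter of root epidermis, from 5.25 to 12.5. In the oxidative list 6 of 20 rose and 3 fell. The copper-zinc superoxide dismutases CSD1 and CSD2 went from 50.3 to 103 and from 19 to 49.2, and the catalase CAT2 from 294 to 497.

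Among hormone genes, those of cytokinin included the type-A response regulators. Of 27 tested 7 rose and 2 fell, against 7.09% and 7.11% of all tested genes. The median log2 fold change of the list was 0.16. The regulators ARR4, ARR7 and ARR15, which are induced by cytokinin and limit its signal, rose from 67.9, 18.9 and 1.61 FPKM to 111, 29.3 and 5.07. The synthesis enzyme IPT3 went from 11.3 to 15.6, whereas LOG5, which activates cytokinin, fell from 5.58 to 1.52.

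Ethylene genes fell more often than they rose, 5 against 1 of 18, with a median of -0.39. The shares over all tested genes were 7.11% for falls and 7.09% for rises. EFE, an ACC oxidase that makes ethylene, fell from 464 to 310.2 FPKM, and the receptor ERS1 fell from 81.2 to 63.9. The receptor EIN4 rose from 12.3 to 17.1. Gibberellin genes had 4 rises and 5 falls in 20, with the synthesis enzyme GA3OX1 from 9.97 to 6.35 and its relative GA3OX2 from 1.24 to 2.62. GASA1, a gibberellin-regulated peptide, rose from 393 to 758 FPKM and was at 1340 in clf and 1203 in lhp1.

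Jasmonate genes were divided, with 6 rises and 5 falls in 27. LOX2 had the largest rise, as given above, and AOC2, the next enzyme but one, went from 237 to 299 FPKM. OPR3, a later enzyme, fell from 45.2 to 20.7, and the storage proteins VSP1 and VSP2 fell from 11.6 to 6.86 and from 22.1 to 14.7. At q under 0.01 the list had 3 rises and 5 falls. Of 26 tested auxin genes 2 rose and 4 fell, and of 25 abscisic acid genes 1 rose and 4 fell. Of 20 brassinosteroid genes 0 rose and 2 fell, and of 14 strigolactone genes 0 rose and 1 fell. Over all tested genes 14.2% were called. Among these calls YUC2, an auxin synthesis enzyme, fell from 1.4 to 0.708 and RAB18, a dehydrin induced by abscisic acid, from 11 to 2.19.

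**Figure D5:**
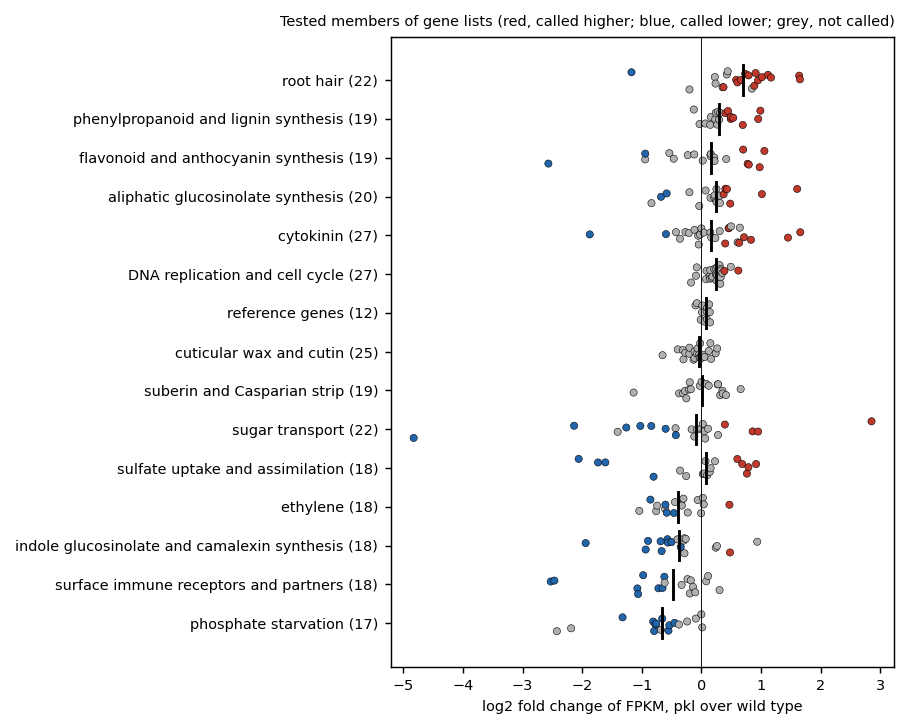
Log2 fold change of FPKM (x axis, pkl over wild type) of each tested member of 15 gene lists, with the number of tested members in brackets and a black bar at the median; colours mark the call. Root hair genes have most points to the right of 0, phosphate starvation and immune receptor genes most to the left, and reference, cuticle and suberin genes have no coloured point.

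Calls among immune receptor genes were mostly falls, and over all tested genes 7.11% fell and 7.09% rose. Of 18 tested surface receptors and partners 8 fell, 0 rose and 10 were not called, with a median log2 fold change of -0.48. WAK1, a kinase that senses pectin fragments, fell from 94.2 to 17.1 FPKM, SOBIR1, the partner of receptor-like proteins, from 64 to 30.6, FLS2, the flagellin receptor, from 20.8 to 13.2 and CERK1, the chitin receptor, from 26.2 to 17. The co-receptor BAK1 was at 46.5 and 42.1 FPKM and the kinase BIK1 at 27 and 33.3, and neither was called. Of 20 cysteine-rich receptor-like kinases 8 fell and 1 rose. CRK10 fell from 29.6 to 14.3 FPKM and CRK4 from 7.38 to 1.82. This kinase family is described because it met the minimum share of calls given for the cell wall families. Its high share of falls follows from that choice.

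The NLR genes, which encode intracellular receptors, fell in 21 and rose in 3 of 89, with RPS2 from 6.57 to 2.48 and RLM3 from 69.4 to 48.4 FPKM. The other 65 were not called, and the summed level of the family was 1783 FPKM in wild type and 1796 in pkl. Receptor-like proteins fell in 7 and rose in 1 of 33, RLP19 from 7.65 to 1.29. These 2 families were chosen after their values were seen. Chitinases and glucanases, which attack fungal walls, fell in 7 and rose in 4 of 19, and CHIA, an acidic chitinase, rose from 6.02 to 14.6. They are described for their share of calls, as the cysteine-rich kinases are, and their high share of falls follows from that choice. The salicylic acid list had 9 falls and 0 rises in 15, and the list of NPR1 and its targets 8 falls and 0 rises in 14. The shares over all tested genes were 7.11% for falls and 7.09% for rises.

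The 10 largest falls in FPKM were of genes with varied annotations. AT5G42530, an uncharacterised protein, was at 2805 FPKM in wild type, 214 in pkl, 1782 in clf and 654 in lhp1. AT2G25510, also uncharacterised, fell from 1134 to 112 and ECS1 from 1168 to 132, and both were also called lower in clf and lhp1. MT3, a metallothionein, fell from 4045 to 2856, and GRP7, a clock-regulated RNA-binding protein, from 3164 to 2315; neither was called in clf or lhp1. The dehydrin-family gene AT1G54410 fell from 2555 to 1687, and AT5G03545, annotated as expressed in response to phosphate starvation, from 904 to 245.

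Most of the 20 largest log2 falls were also called lower in lhp1. PRB1 was at 30.2 FPKM in wild type, 0.374 in pkl, 20.8 in clf and 0.659 in lhp1. LURP1 was at 98.8, 2.53, 67.9 and 24.0 in the same order. Both were called lower in clf and lhp1. Several other deep falls had no called fall in clf or lhp1. SP1L5, of a family of microtubule-associated proteins, was at 5.06 FPKM in wild type, 0.25 in pkl, 5.28 in clf and 7.63 in lhp1. The methyltransferase gene AT5G37990 was at 18.8, 1.29, 36.6 and 22.8, and the germin-like gene GER2 at 7.36, 0.53, 12.8 and 7.55. AT5G37990 and GER2 were called higher in clf. The wild type is the same group in all 3 tables, and no test compares the mutants with each other.

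Flowering and clock genes were called more often than the 14.2% of all tested genes. In the flowering time list 7 fell and 3 rose of 29, and FLC, the repressor of flowering, fell from 3.77 to 0.524 FPKM. In the clock list 4 fell and 2 rose of 19, with PRR7 from 4.36 to 1.63 and LHY from 1.09 to 2.66. MAF4, a relative of FLC, rose from 3.52 to 10 and FD, a partner of the flowering signal FT, fell from 9.15 to 2.58. Of 17 meristem and KNOX genes 3 fell, among them STM, the homeobox gene that maintains the shoot meristem, from 7.44 to 2.47. The shares called in the lists of leaf polarity and growth and of the stomatal lineage were near that of all tested genes. Leaf polarity and growth had 3 falls and 1 rise in 30. Of 17 stomatal lineage genes 2 fell, the initiating factor SPCH from 6.05 to 3.83 and FMA, which acts last, from 15.5 to 11.1.

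Some groups showed no call or hardly any. None of 25 genes of cuticular wax and cutin and none of 12 reference genes was called, with medians of -0.04 and 0.07. Of 27 genes of DNA replication and the cell cycle, 2 rose (LGO from 49.9 to 65.2 and ORC1B from 2.8 to 4.3) and 24 had a positive log2 fold change, with a median of 0.25. Of 241 cytosolic ribosomal proteins 6 rose and 2 fell, and of 351 pentatricopeptide and tetratricopeptide repeat proteins 5 rose and 3 fell. Embryo regulators had 3 tested members and seed storage and oil body genes 4, and none was called. A gene that was not called is not shown to be equal in both genotypes.

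Neighbouring genes fell together in 4 places, each a run of at least 4 adjacent tested loci called lower; no run of that length was called higher. On chromosome 1 from 9126737 to 9143304, AT1G26380, AT1G26390, AT1G26410 and AT1G26420, all of the berberine bridge enzyme family, fell from 11.9, 4.04, 2.59 and 7.23 FPKM to 4.65, 1.38, 0.539 and 3.19. A second run on that chromosome, from 19206667 to 19241935, holds the receptor kinase genes AT1G51790, IOS1, AT1G51805 and AT1G51820, of which IOS1 fell from 16.4 to 8.15. The run on chromosome 2 from 6213972 to 6242463 holds LURP1, an unnamed locus, PRB1 and PR1. The run on chromosome 5 from 21363655 to 21387703 holds genes annotated for metal binding, with AT5G52750 from 37.3 to 15.0. Tandem copies can share reads, so the split between such neighbours is uncertain.

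Runs of 3 numbered 18 among rises and 15 among falls. Adjacent blocks moved in opposite directions on chromosome 1, where the run from 19333140 to 19352782 was lower and that from 19354919 to 19366924 higher. Both lie in a group of jacalin-type lectin genes, and these 2 were chosen after their values were seen.

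Called genes were spread over the genome. The share of tested genes called in both directions was between 12.9% on chromosome 3 and 15.1% on chromosome 1. Windows of 500 kb in the lowest 10% of gene density had 132 tested genes, of which 9 rose and 10 fell. Of 104 tested pseudogenes 18 rose and 6 fell, and of 115 tested genes of type lncRNA 2 rose and 2 fell.

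The share of calls differed by locus length. It was 12.4% for loci under 500 bases, 22.3% for those of 500 to 1000, 19.8% and 14.6% in the next 2 classes of length, and 8.38% above 4000. By mean level it had no steady order: it was 11.2% for genes under 1 FPKM, 15.8% for 1 to 3, 15.3% for 3 to 10, 12.7% for 10 to 30, 14.3% for 30 to 100, 16.7% for 100 to 1000 and 16.2% above. The median absolute log2 fold change of called genes was 1.68 under 1 FPKM and 0.51 at 100 to 1000.

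Other promoter letters were counted in the same way on either strand, with no test. The W-box, TTGACC or TTGACT on either strand, which WRKY factors bind, was found within 250 bases of the start in 28.3% of all tested genes, 28.3% of those that rose and 28.9% of those that fell. Among genes that fell at least 4-fold the share was 30.3%. The evening element AAAATATCT, known from clock-regulated genes, was in 2.60% of all, 2.65% of those that rose and 4.61% of those that fell, and the TGA motif TGACG in 3284 of 17082, 213 of 1208 and 259 of 1216. The RY element CATGCA, bound by B3 factors of the embryo, was in 8.03% of all, 9.27% of those that rose and 10.9% of those that fell, and the telo-box AAACCCTA in 3.71%, 2.57% and 2.38%. Among genes that rose and fell at least 4-fold, the RY element was in 12.9% and 16.4% and TGACG in 23.5% and 26.2%. The evening element and the telo-box were each in 4.71% and 3.28% of these, and ACGTG in 28.2% and 33.6%. GAGAGAGA was in 4.62%, 3.39% and 3.21%, and in 3.53% of the 85 genes that rose and 7.38% of the 122 that fell at least 4-fold. AACCTA was in 11.3% of all, and in 5.88% and 10.7% of those with a 4-fold rise and fall.

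Not every large difference was called. Of tested genes with at least 4-fold difference and at least 5 FPKM in the higher genotype, 83 were called and 18 were not. GRP19, a glycine-rich protein known from anthers, was at 0.197 and 59.4 FPKM in wild type and mutant, and the authors' deposited table gives q = 0.534. AT5G04790 was at 141 and 0.529 (deposited q = 0.56). Values per library are not in the table, so which libraries carry these differences cannot be given.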

How the data were processed

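RNA-seq of whole 14-day seedlings was used, 3 libraries each of wild type and pkl. The authors aligned reads to TAIR10 with TopHat and used Cufflinks 2.1.1 and Cuffdiff 2.1.1, per the submitters' processing notes. The deposited table gives, per the file headers, an FPKM value per genotype, a test statistic (a score), a p-value and a q-value per locus. The unit was checked against the values; read counts and depth per library are not used here, so depth is unknown. FPKM summed to 961000 in wild type and 981000 in pkl. A gene was called where the deposited q was under 0.05 and the status was OK.

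From these values, log2 ratios without a pseudocount, counts over 54 lists and 67 annotation families, and motif counts were computed with Python 3.11.15, pandas 2.3.3 and numpy 2.4.6. Of the list entries, 18 had no single match and 100 shared a locus and were left out. No test of a list was made. The adjustment and counting code was tested on simulated data. The reference for names and sequences was the RefSeq TAIR10.1 assembly; the most common offset between locus starts in the files and gene starts in it was 0 bases on each nuclear chromosome. Promoters are the 250 bases before the annotated start. The PHR1 motif was added after the data were seen.

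Members and lists were chosen with earlier results of these data known. Genes named are the mutated gene and up to 6 called members per list or family. Others were drawn from the 20 largest rises and falls in log2 ratio with at least 5 FPKM and the 10 largest differences in FPKM. Called genes at 0 in a genotype and runs of at least 4 neighbours were further sources. Not all genes of these sets are named. Other names in the text were chosen after their values were seen. Alternatives were a q of 0.01, p-values adjusted within this comparison, a minimum of 1 FPKM or of 2-fold, shared loci, pseudocounts of 1 and 0.1, and centring.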

Additional observations from a re-analysis of the deposited data

Results flagged for a closer look

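Loci without a gene name are outside the comparisons of genes. Of 234 such loci 142 were tested; 12 were called higher in pkl and 7 lower, by the authors' deposited q. Among those that rose, the highest pkl levels were 32.0 FPKM on chromosome 3 from 11983614 to 11983998, where wild type was at 2.65, 12.0 on chromosome 1 from 8861649 to 8862747, where wild type was at 7.5, and 9.45 on chromosome 5 from 7891024 to 7891612, where wild type was at 5.26. The first of these was at 2.36 FPKM in clf and 3.3 in lhp1. Of those that fell, 2 on chromosome 2 were listed at 0 in pkl, from 2295050 to 2295529 and from 6216817 to 6217617, with 0.615 and 0.434 FPKM in wild type. The largest log2 fall among those above 0 was on chromosome 5 from 8221255 to 8223206, from 5.43 to 0.0908 FPKM. What these transcripts are was not examined.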

How the results depend on the processing

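A q of 0.01 left 766 genes higher and 796 lower, and a 2-fold minimum left 359 and 422. With the 2-fold minimum, called list members fell from 260 to 86 and family members from 743 to 260. Of the 108 counts per list and direction, 65 moved by more than 1.5 times at 2-fold and 32 at q under 0.01. At 2-fold the root hair list had 5 rises, phosphate starvation 1 fall, phenylpropanoids 0 rises, indole glucosinolates 1 fall and surface receptors 4 falls. Under the other alternatives the totals stayed within 1.5 times, while 4 list counts moved beyond that with shared loci, 4 with p-values adjusted within this comparison and 1 with a minimum of 1 FPKM. P-values adjusted within this comparison gave 1133 and 1146. A pseudocount of 1 or 0.1 added to both genotypes cannot change the sign of a log2 fold change, so it is no check of direction. Centring, a shift by the median, was run on 306 called genes, from the lists and the sets of largest changes, and all kept their sign. That shift was far smaller than the log2 fold changes of called genes, so it is no check of direction either. The direction with more calls turned in jasmonate genes at q under 0.01 (3 higher, 5 lower) and at 2-fold (1 and 2), in metallothioneins at q under 0.01 (0 and 1), and at 2-fold in sulfate (0 and 3) and gibberellin genes (1 and 0). No paired analysis was possible because the table gives 1 value per genotype; leaving out a library could not be run for the same reason.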
